A study of Mus musculus with 3 samples.

Results

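The SOCS genes and the JAK kinase genes were followed through 3 libraries of the monocyte lineage in experimental autoimmune encephalomyelitis (EAE), the mouse disease used to model multiple sclerosis. The members are 10 listed genes, namely 6 of the suppressor of cytokine signaling family (Socs1, Socs3, Socs4, Socs5, Socs6 and Cish) and the 4 Janus kinases (Jak1, Jak2, Jak3 and Tyk2). They were taken by symbol from the 22238 genes listed in all 3 libraries, and all 10 were found. All mice were wild-type females on a C57BL/6J background, 10 to 12 weeks old, immunized with MOG peptide in complete Freund's adjuvant and given pertussis toxin. Every group shared this treatment, so no library came from unimmunized mice. At days 14 to 15, at the peak of disease, CD45+ CD11b+ Ly6G- cells were sorted into 3 populations. These were bone marrow monocytes (BM-Mono, high in Ly6C and without CD11c), spinal cord monocytes (SC-Mono, high in Ly6C and positive for CD64) and antigen-presenting cells derived from monocytes in the spinal cord (SC-APC, positive for CD64 with low or no Ly6C). Cells of intermediate Ly6C were left out of the sort. Spinal cords were digested with enzymes and passed through a density gradient, whereas bone marrow was flushed and its monocytes were enriched with a kit. Between the bone marrow and spinal cord libraries, tissue and this handling therefore cannot be told apart. The bone marrow library pooled 13 mice of 2 experiments, and each spinal cord library pooled 18 mice of 3 experiments. With 1 library per population, no difference below has a replicate check, and all intervals cover counting error only.

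Cytokine receptors without a kinase of their own signal through JAKs, which sit on the receptor tails in pairs and phosphorylate STAT transcription factors. JAK1 and TYK2 serve interferon and IL-6 type receptors among others, JAK2 serves the GM-CSF and interferon-gamma receptors, and JAK3 binds the common gamma chain. SOCS proteins close the loop. SOCS1 and SOCS3 block JAK activity directly, CIS (the product of Cish) binds receptors that activate STAT5, and through the SOCS box all of them recruit a ubiquitin ligase. Socs1, Socs3 and Cish are known as genes that STATs switch on, whereas SOCS4, SOCS5 and SOCS6 are better known for binding receptor tyrosine kinases. In monocytes this circuit reads GM-CSF, interferons, IL-6 type cytokines and IL-10.

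The files held estimated reads and TPM (a level corrected for transcript length and scaled to a fixed sum per library) per gene. Estimated reads summed to between 27283795 and 33280643 per library. The monocyte libraries listed 54432 genes each and the APC library 22242, which shows that the transcript set behind the APC file was a different one. TPM was therefore rescaled to the same sum over the common genes, and all levels below are rescaled TPM with 95% Wilson intervals. Fold changes were taken from reads scaled by size factors and carry a 98% interval. A gene was called higher or lower where the whole interval passed a 2-fold change and either library compared had a TPM over 3. All 6 classical monocyte markers were over 3 TPM in every library, a threshold that does not tell the populations apart. Ly6c2, a gene of the Ly6C marker used to sort the cells, stood at 5205, 3602 and 1067 TPM in BM-Mono, SC-Mono and SC-APC. In the same order, Ccr2 stood at 1629, 299 and 139 TPM. Plac8 (2564, 3506 and 500 TPM) and Fcgr1 (81.3, 274 and 138 TPM) were highest in SC-Mono. Csf1r was highest in SC-APC (374, 676 and 1134 TPM), and Itgam differed little (485, 533 and 510 TPM). The summed level of 5 antigen presentation markers was 168, 4069 and 9954 TPM in the same order.

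From bone marrow to spinal cord monocytes, 4 of the 10 members were called higher and 0 lower, where 13.8% of 10072 active genes were called higher and 10.7% lower, 24.4% in either direction. The 4 were Cish, Socs1, Socs3 and Jak2. The median log2 fold change of the 10 was 0.55, against -0.15 over all active genes. Cish and Socs1 passed the filter on TPM through the spinal cord library alone. In bulk samples of this kind, more cells that hold a transcript and more transcript per cell cannot be told apart.

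Cish (ENSMUSG00000032578.7), on the plus strand of chromosome 9 of GRCm38 from 107296026 to 107302784, was nearly silent in bone marrow monocytes. It had 15 reads there, 2274 in spinal cord monocytes and 1703 in APCs. Its level was 0.244 TPM (0.148 to 0.403) in BM-Mono, 62.5 TPM (59.9 to 65.1) in SC-Mono and 42.1 TPM (40.1 to 44.1) in SC-APC. Both spinal cord libraries lay far above the bone marrow library, and their own intervals did not overlap. The log2 fold change between the monocyte populations was 7.66 (6.89 to 8.60). The effective length of Cish was 2903 bases in BM-Mono, 1879 bases in SC-Mono and 1942 bases in SC-APC, and with reads divided by it the log2 fold change was 8.19.

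Socs1 (ENSMUSG00000038037.5), a gene whose coding sequence lies in 1 exon, is on the minus strand of chromosome 16 from 10782240 to 10785536. It had 28, 1125 and 627 reads in BM-Mono, SC-Mono and SC-APC. These correspond to 0.519 TPM (0.359 to 0.750), 22.8 TPM (21.5 to 24.1) and 11.5 TPM (10.7 to 12.5). Spinal cord monocytes were the high library, and APCs lay between them and bone marrow monocytes. The log2 fold change of spinal cord over bone marrow monocytes was 5.78 (5.18 to 6.46), or 54.8-fold.

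Socs3 (ENSMUSG00000053113.3), on the minus strand of chromosome 11 from 117966079 to 117970047, was already present in the bone marrow and became by far the most abundant member. Reads were 1348, 39387 and 36876 in BM-Mono, SC-Mono and SC-APC, and levels were 27.8, 909 and 772 TPM. In spinal cord monocytes Socs3 ranked 193 of the 22238 genes by TPM, against 4579 in bone marrow monocytes. The log2 fold change was 5.35 (5.26 to 5.44), or 40.8-fold.

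**Figure D1:**
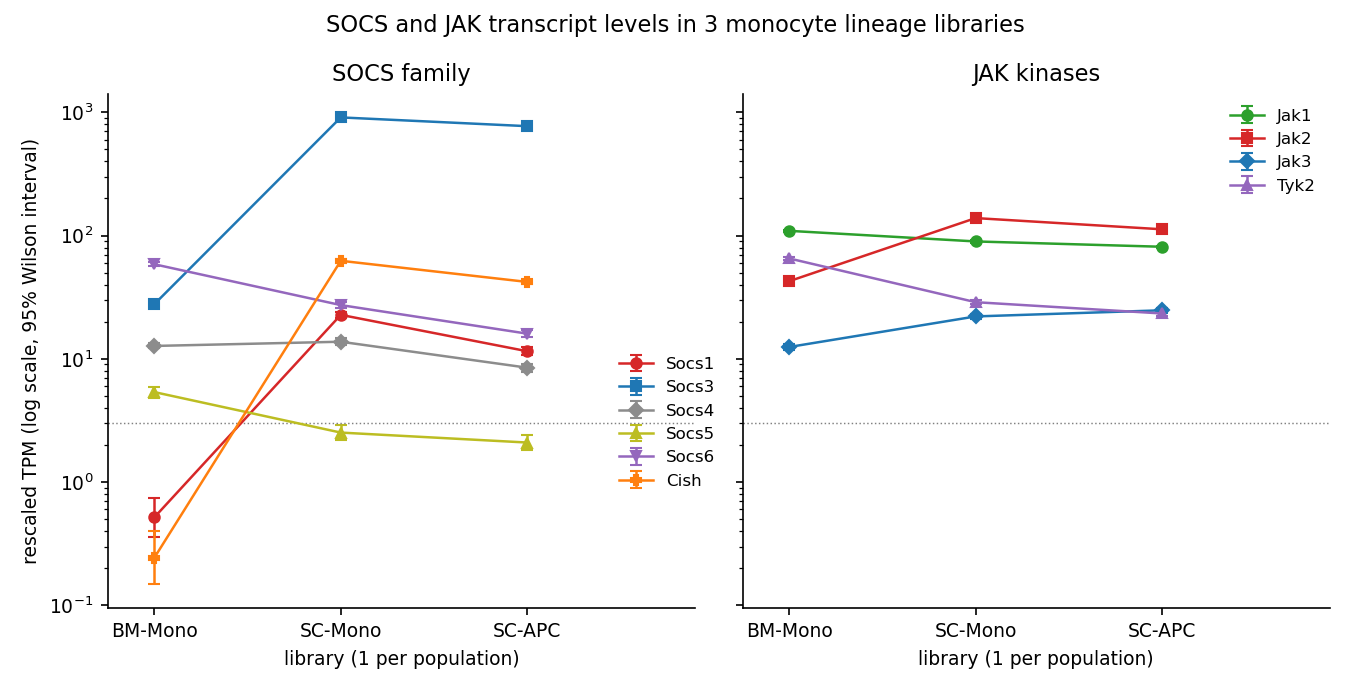
Rescaled TPM (log axis) of the 6 SOCS genes and the 4 JAK genes in the 3 libraries, with points for the level and bars for the 95% Wilson interval, which covers counting error only. The dotted line marks 3 TPM. Socs1 and Cish start below 1 TPM in BM-Mono and reach 22.8 and 62.5 TPM in SC-Mono, and Jak2 passes Jak1 between BM-Mono and SC-Mono.

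The promoters of these 3 genes are shown because they are the SOCS members that moved together. Promoters came from RefSeq on GRCm38.p6 as windows of 300 bases, from 250 before to 50 after the annotated start, and 8 of the 10 members had one in the table. Capitals mark matches to TTCNNNGAA, the palindrome that STAT dimers bind, or to the core of the interferon response element (GAAA, any 2 bases, GAAA), searched on both strands. All are read 5′ to 3′ on the strand of the gene.
Cish, chr9:107296409-107296708, plus strand: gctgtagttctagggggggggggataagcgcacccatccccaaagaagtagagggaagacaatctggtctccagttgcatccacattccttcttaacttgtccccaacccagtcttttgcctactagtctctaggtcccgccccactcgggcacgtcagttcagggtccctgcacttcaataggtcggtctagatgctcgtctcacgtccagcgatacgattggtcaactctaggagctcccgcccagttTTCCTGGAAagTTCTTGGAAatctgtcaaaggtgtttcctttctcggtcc
Socs1, chr16:10785487-10785786, minus strand: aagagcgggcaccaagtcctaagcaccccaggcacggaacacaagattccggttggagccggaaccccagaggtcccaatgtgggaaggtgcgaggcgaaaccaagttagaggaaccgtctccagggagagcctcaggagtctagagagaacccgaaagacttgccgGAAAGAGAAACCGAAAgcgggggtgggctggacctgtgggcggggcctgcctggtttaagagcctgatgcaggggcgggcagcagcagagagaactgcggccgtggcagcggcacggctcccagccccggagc
Socs3, chr11:117969317-117969616, minus strand: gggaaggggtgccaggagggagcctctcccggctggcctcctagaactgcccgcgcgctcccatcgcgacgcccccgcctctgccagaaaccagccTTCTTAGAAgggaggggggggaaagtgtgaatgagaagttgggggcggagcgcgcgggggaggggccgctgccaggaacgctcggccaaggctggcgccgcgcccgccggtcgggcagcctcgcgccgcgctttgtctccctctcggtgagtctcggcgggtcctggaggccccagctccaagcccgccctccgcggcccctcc

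The Cish window held 2 STAT palindromes, TTCCTGGAA at base 251 and TTCTTGGAA at base 262, at and just past the annotated start. The Socs3 window held 1, TTCTTAGAA at base 97. The Socs1 window held none and instead had GAAAGAGAAA at base 168 and GAAACCGAAA at base 174, which overlap by 4 bases. Of 32851 promoter windows, 8.30% held TTCNNNGAA at least once and 0.457% held it 2 or more times, while 3.44% held the interferon response element core and 0.225% held it 2 or more times. The palindrome with 4 bases between TTC and GAA, which STAT6 prefers, was in 6.95% of windows and in none of the 8. None of the 3 motifs was in the windows of Socs4, Jak1, Jak2, Jak3 and Tyk2. A match is a run of letters and not a measured binding site, and its absence concerns this window only.

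The other SOCS members were not called between the monocyte populations. Socs6 (ENSMUSG00000056153.15), on chromosome 18 from 88665224 to 88927481, was the most abundant SOCS gene of bone marrow monocytes, at 58.5 TPM with 3046 reads. It stood at 27.3 TPM in SC-Mono and 16.02 TPM in SC-APC, and the 3 intervals did not overlap. Its log2 fold change between monocyte populations was -0.91 (-1.03 to -0.80), whose interval included a 2-fold change. Socs5 had 362, 192 and 178 reads, or 5.37, 2.52 and 2.10 TPM, and was below 3 TPM in both spinal cord libraries. Between monocyte populations its log2 fold change was -0.43 (-0.73 to -0.13).

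Socs4 gave opposite signs by reads and by level. It had 1799, 866 and 658 reads, a log2 fold change of -0.57 (-0.71 to -0.43) between monocyte populations, but 12.7, 13.8 and 8.48 TPM. Salmon gave it an effective length of 6619 bases in BM-Mono, 3244 bases in SC-Mono and 3723 bases in SC-APC, and with reads divided by it the log2 fold change was 0.36. The annotation gives Socs4 2 transcripts.

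These shifts changed the make-up of the transcripts of the 6 SOCS members. Socs2 and Socs7 are outside these sums and are given below. In SC-APC, Socs2 stood at 46.5 TPM, above Cish. Over the 6 genes the sum was 105 TPM in BM-Mono, 1038 TPM in SC-Mono and 852 TPM in SC-APC. Socs6 held 55.6% of the sum in the bone marrow and Socs3 26.4%. In the spinal cord Socs3 held 87.6% in monocytes and 90.6% in APCs, and Cish came next with 6.02% and 4.94%. Without Socs3, the other 5 genes summed to 129 TPM in SC-Mono and 80.2 TPM in SC-APC. By level the order in BM-Mono was Socs6, Socs3, Socs4, Socs5, Socs1 and Cish, where the intervals of Socs1 and Cish overlapped. In both spinal cord libraries it was Socs3, Cish, Socs6, Socs1, Socs4 and Socs5, with no overlap between neighbours.

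**Figure D2:**
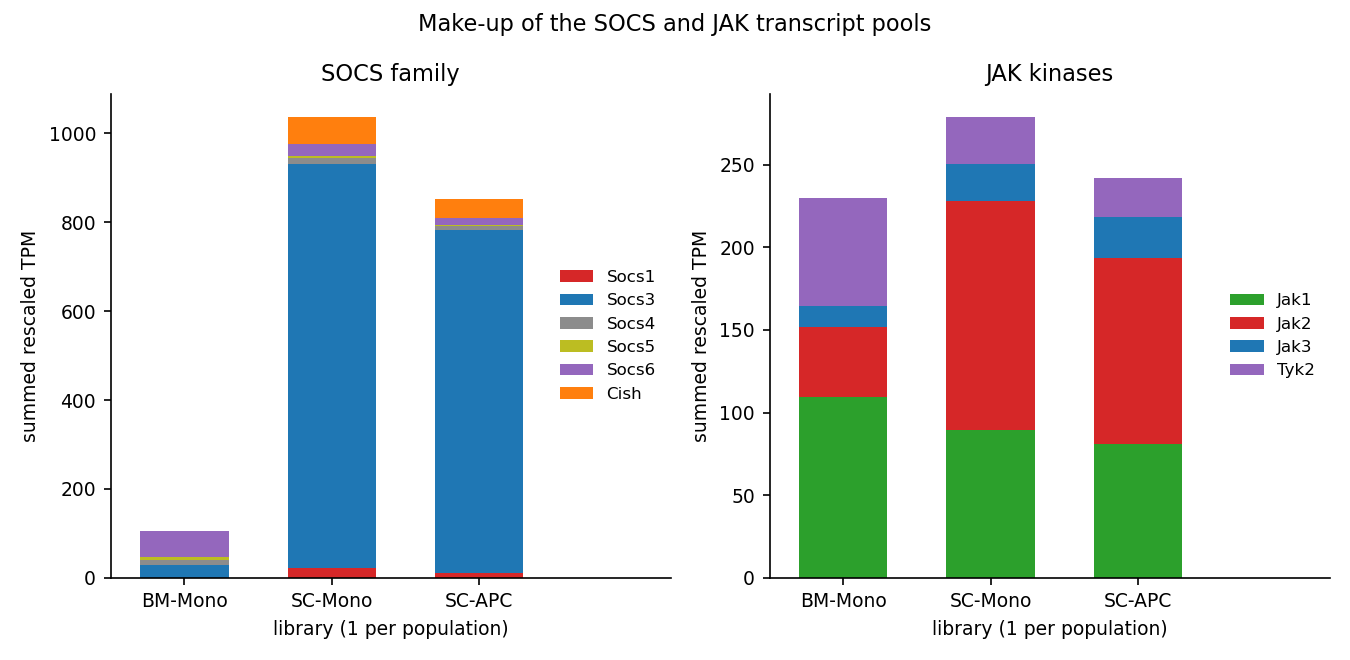
Summed rescaled TPM (linear axis from 0) of the SOCS genes and of the JAK genes in each library, stacked by gene, with 1 library per population. The SOCS sum goes from 105 TPM in BM-Mono to 1038 TPM in SC-Mono, mostly Socs3, whereas the JAK sum stays between 230 and 279 TPM while Jak2 takes a larger share.

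Among the kinases, Jak2 was called higher in the spinal cord. Jak2 (ENSMUSG00000024789.13), on the plus strand of chromosome 19 from 29251828 to 29313080, had 4054, 11394 and 9952 reads in BM-Mono, SC-Mono and SC-APC. Its level was 42.7 TPM (41.4 to 44.0), 139 TPM (136 to 141) and 112 TPM (110 to 115). The log2 fold change between monocyte populations was 1.97 (1.91 to 2.03), and Jak2 kept this call in 12 of 13 alternative settings, losing it when libraries were assumed to vary with a CV (SD over mean) of 0.4.

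Jak3 was at the edge of the rule. It had 999, 1557 and 1868 reads, or 12.5, 22.1 and 24.8 TPM. Between the monocyte populations the log2 fold change of Jak3 was 1.12 (0.99 to 1.26), an interval that just included a 2-fold change. Tyk2 had 6131, 2392 and 2149 reads, or 65.2, 28.8 and 23.3 TPM, and was not called, its log2 fold change being -0.88 (-0.96 to -0.80). Jak1 stood at 109, 89.6 and 81.1 TPM, with 10709, 7581 and 7818 reads. The log2 fold change of Jak1 was -0.02 (-0.07 to 0.03), within counting error of 0 on size-factor scaling.

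The JAK sum was 230 TPM in BM-Mono, 279 TPM in SC-Mono and 242 TPM in SC-APC, so its parts moved more than the whole. Jak1 led in the bone marrow with 47.6% of the sum, followed by Tyk2 with 28.4% and Jak2 with 18.6%. In spinal cord monocytes Jak2 led with 49.7%, Jak1 had 32.1% and Tyk2 10.3%. The ratio of Jak2 to Jak1 was 0.391 in BM-Mono, 1.55 in SC-Mono and 1.39 in SC-APC. Neighbours in the order did not overlap in any library, except Jak3 and Tyk2 in APCs, at 24.8 TPM (23.7 to 25.9) and 23.3 TPM (22.4 to 24.3).

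From spinal cord monocytes to APCs, 0 of the 9 active members were called in either direction, where 1.93% of 9734 active genes were called higher and 1.70% lower, 3.63% in either direction. Socs5 was under 3 TPM in both libraries and was not counted. The median log2 fold change of the 9 was -0.35, against -0.04 over all active genes, and 8 of the 9 had a negative value. A plain 2-fold change, with no interval, also called 0 members.

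Socs1 was the member farthest from 0, with a log2 fold change of -0.999 (-1.17 to -0.83) whose interval lay on both sides of the 2-fold line. Socs6 had -0.72 (-0.88 to -0.57), Cish -0.57 (-0.68 to -0.47) and Socs4 -0.55 (-0.73 to -0.38). Socs3 had -0.25 (-0.28 to -0.23), so the most abundant SOCS transcript differed least among the 5 active SOCS genes. Among the kinases, Jak2 had -0.35 (-0.40 to -0.31), Tyk2 -0.31 (-0.41 to -0.21) and Jak1 -0.11 (-0.17 to -0.06). Jak3 had 0.11, with an interval from -0.01 to 0.22 that included 0.

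**Figure D3:**
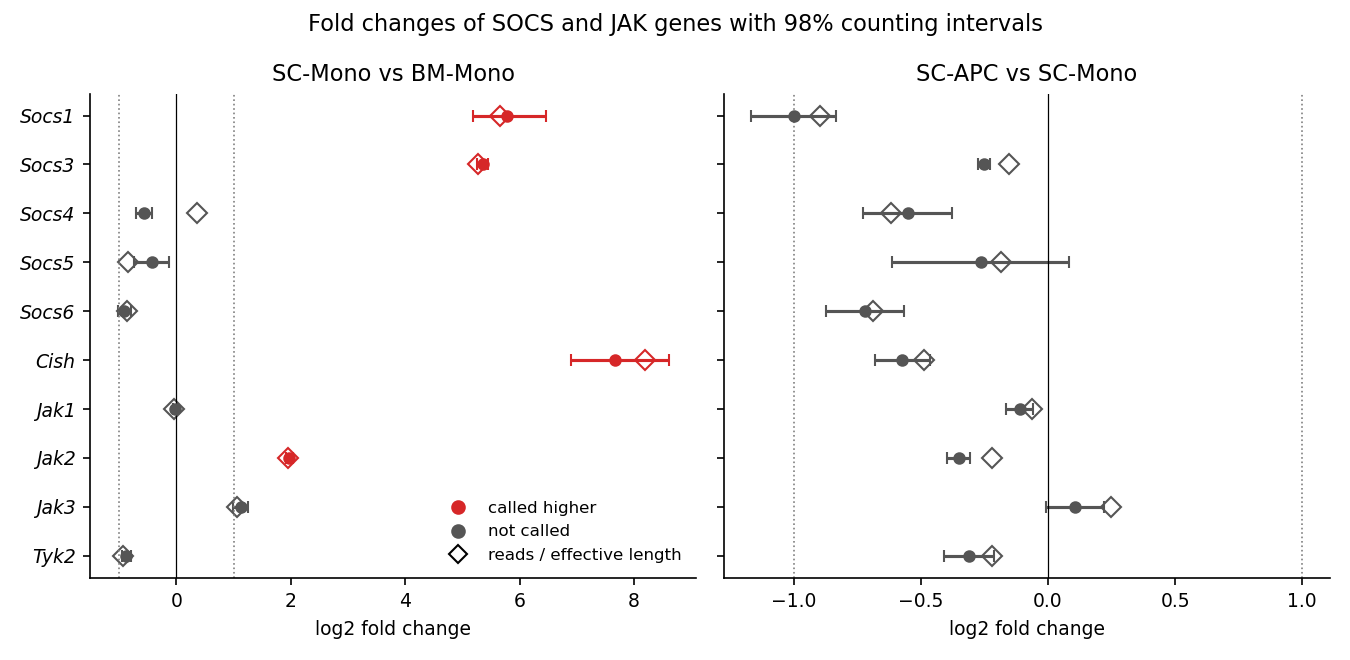
Log2 fold change of each member between the monocyte populations (left) and from spinal cord monocytes to APCs (right), as filled points with 98% counting intervals, with open diamonds for reads divided by effective length and dotted lines at a 2-fold change. The 2 panels have different axes. Cish, Socs1, Socs3 and Jak2 lie beyond the line on the left, Socs4 changes sign with the length correction, and none of the members lies beyond the line with its whole interval on the right.

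Set directly against bone marrow monocytes, APCs had 5 members called higher (Cish, Socs3, Socs1, Jak2 and Jak3) and 2 called lower (Socs6 and Tyk2), where 14.0% of 10190 active genes were called higher and 11.8% lower, 25.8% in either direction. Cish and Socs1 passed the filter on TPM through SC-APC alone. This comparison shares its libraries with the other comparisons and is no independent check of them. Jak3 had a log2 fold change of 1.23 (1.10 to 1.36), Socs6 of -1.63 (-1.77 to -1.50) and Tyk2 of -1.19 (-1.27 to -1.10). Socs4 had -1.12, or -0.26 once reads were corrected for effective length. Scaled by total reads, Jak3 lost its call and Socs4 was called lower. Only Cish, Socs1 and Socs3 kept their calls here under an assumed CV between libraries of 0.2.

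Against all active genes, the SOCS genes called higher stood near the upper end of the first step. By log2 fold change Cish ranked 117, Socs1 257 and Socs3 291 of 10072 genes, and Jak2 ranked 931. Counted from the lowest value, Socs6 ranked 1651 and Tyk2 1728. In the second step Socs1 ranked 303 from the lowest value of 9734 genes and Socs6 627.

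**Figure D4:**
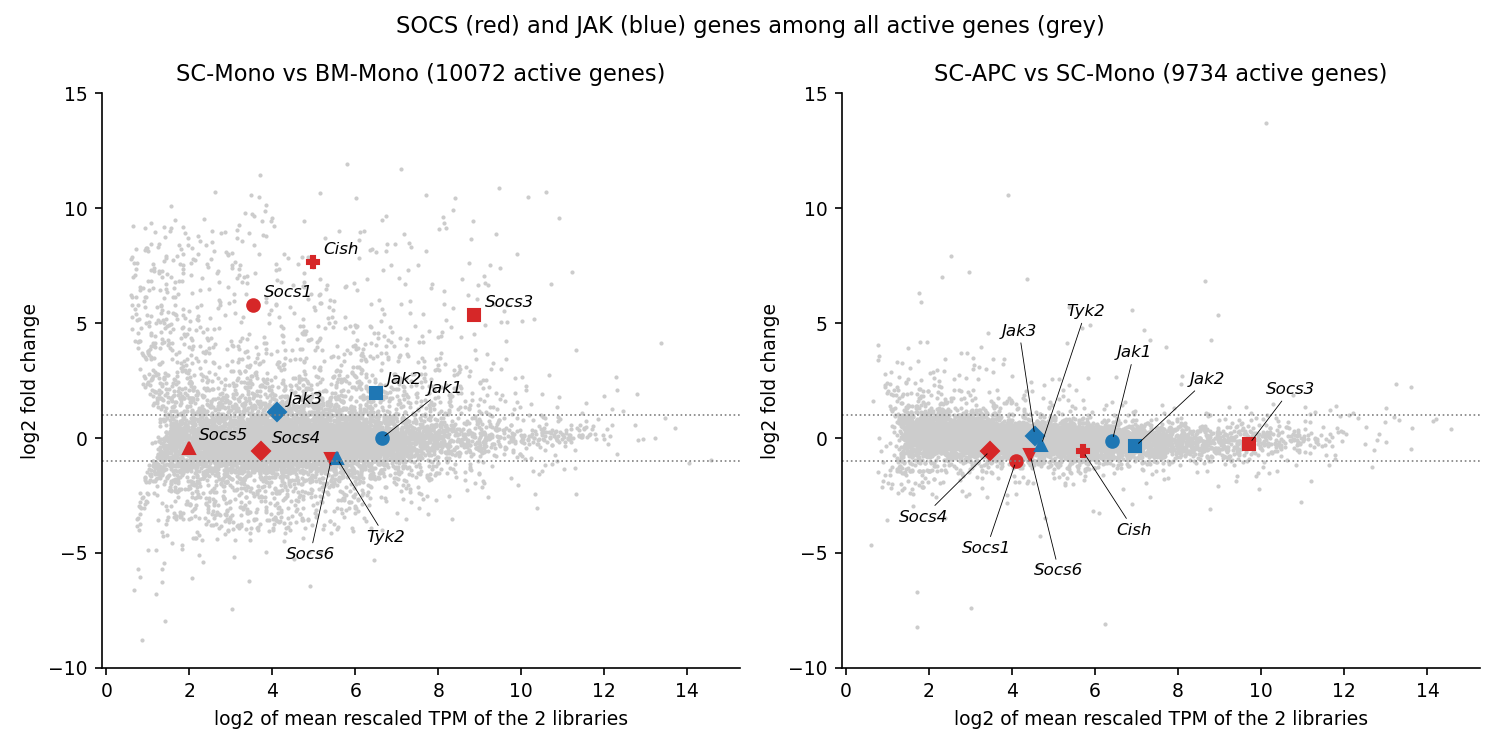
Log2 fold change against the log2 of the mean rescaled TPM of the libraries compared, for every active gene (grey), the SOCS genes (red) and the JAK genes (blue), with dotted lines at a 2-fold change. Cish, Socs1, Socs3 and Jak2 lie above the upper line on the left, where Socs3 also stands among the abundant genes, and all members lie inside or on the lines on the right.

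The genes most like each called member were found by distance in the plane of the log2 fold changes of both steps, among 8203 genes of at least 10 TPM in a library. With 3 libraries this describes 2 values per gene and no more. Nearest to Cish were the chemokine gene Ccl4 (distance 0.067), Il6 (0.230) and Trbc1 (0.259), a constant segment of the T cell receptor whose level in BM-Mono was 0 TPM, so that its place depends on the read added in the calculation. Nearest to Socs3 were Ly6i (0.113), Phldb1 (0.143) and Gpr84 (0.155). Nearest to Socs1 were Csrnp1 (0.236), Atf3 (0.264) and Cnn3 (0.286). Jak2 lay in a dense part of the plane, with 53 genes within 0.25, of which Ero1l, Hk2 and C5ar1 were nearest.

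The T cell markers moved with these genes and are given for that reason, since T cells also express Cish, Socs1 and Jak3. Of 7 T cell markers, 0 were over 3 TPM in bone marrow monocytes and 6 in each spinal cord library. Their summed level was 0.507 TPM in BM-Mono, 55.4 TPM in SC-Mono and 80.9 TPM in SC-APC, and Cd3g, Cd4 and Trac had 0 reads in BM-Mono. From SC-Mono to SC-APC the T cell sum was thus higher, as were the levels of Jak3, at 22.1 and 24.8 TPM, and of Socs2, at 33.8 and 46.5 TPM, whereas those of Cish and Socs1 were lower. The part of T cells in the values of Cish, Socs1, Socs2 and Jak3 was not tested. Nor was it tested for Stat4, Ifng and Il2ra, given below, which were also higher in SC-APC than in SC-Mono.

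Markers of other cells were also present. Summed over 5 genes each, neutrophil markers stood at 994, 161 and 347 TPM in BM-Mono, SC-Mono and SC-APC, and microglia markers at 12.03, 82.1 and 213 TPM. NK cell markers stayed between 3.74 and 9.48 TPM and B cell markers at or below 0.976 TPM. The 5 cDC markers summed to 38.1, 9.59 and 21.998 TPM, of which Flt3 made up 37.8, 3.65 and 6.65 TPM, and each of the other 4 was lowest in BM-Mono and highest in SC-APC, such as Clec9a at 0.108, 4.38 and 7.40 TPM. The 4 CNS-associated macrophage markers summed to 5.48, 7.83 and 18.7 TPM, of which Mrc1 made up 1.45, 6.59 and 17.9 TPM. Cd163 and Cbr2 went the other way and were lowest in SC-APC, and Lyve1 had 0 reads in BM-Mono and SC-APC. Endothelial, oligodendrocyte and astrocyte markers were at 30.4, 48.1 and 12.2 TPM in SC-Mono and at 18.2, 45.8 and 8.16 TPM in SC-APC, and at 10.1, 73.1 and 3.82 TPM in BM-Mono, where Cldn5, Mog and Aqp4 had 0 reads. Their part in the member values was not tested.

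Among the STAT genes, whose products JAKs activate, Stat2, which takes part in type I interferon signaling, rose from 43.0 to 124 TPM between the monocyte populations, with a log2 fold change of 1.57 (1.49 to 1.66). Stat5b fell from 58.4 to 19.3 TPM, with -1.24 (-1.33 to -1.15), and Stat5a, at 28.1 and 12.9 TPM, had -0.87 and was not called. Stat3 (0.23), Stat6 (-0.37) and Stat4 (-0.53) were not called. From SC-Mono to SC-APC, Stat4, which IL-12 activates, rose from 2.75 to 10.51 TPM, or 2.08 (1.75 to 2.42) in log2 fold change. In that step Stat4 passed the filter on TPM through SC-APC alone. Stat2 had -0.70 there, or -1.60 with the correction for effective length, where it was called lower.

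The counts of the lists that follow are to be read against the shares over all active genes, 13.8% called higher and 10.7% lower between the monocyte populations and 1.93% and 1.70% in the second step. Of 14 other negative regulators, 3 were called higher and 1 lower between the monocyte populations, with a median log2 fold change of -0.03, and 0 higher and 1 lower in the second step. Socs2, a SOCS gene outside the 10 members that STAT5 also switches on, went from 8 reads in BM-Mono to 1169 in SC-Mono and 1876 in SC-APC, or 0.325, 33.8 and 46.5 TPM. Its log2 fold change was 7.56 (6.55 to 8.87) in the first step and 0.53 (0.40 to 0.65), not called, in the second, and it passed the filter on TPM through the spinal cord libraries alone. Socs7 had 7.25, 9.79 and 4.98 TPM and was not called in either step. Usp18, which dampens the type I interferon receptor, rose with 2.29 (2.08 to 2.50) and fell again in APCs, with -1.20 (-1.38 to -1.03). That second call was lost when total reads replaced size factors, and with the correction for effective length, at -1.12. The phosphatase gene Ptpn2 rose with 1.34 (1.22 to 1.46), and Pias3, encoding an inhibitor of STAT3, fell with -1.27 (-1.54 to -1.01), a call lost with the correction for effective length, at -0.85. The most abundant of the list, Ptpn1, stood at 313, 501 and 153 TPM and was not called, with a log2 fold change of -0.61 in the second step. Its effective length was 2.23 times longer in SC-APC than in SC-Mono, and corrected for it the value was -1.63, where it was called lower. Of the 7 partners of the SOCS box in the ubiquitin ligase, 0 were called in either step, and Elob, the most abundant, stood at 317, 333 and 257 TPM.

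The chains of receptors that signal through JAKs, ligand-binding chains included, split by family. Of 4 active chains of the gp130 family, which signals through JAK1 and STAT3 and is bound by SOCS3, 3 were called lower and 1 higher in spinal cord than in bone marrow monocytes, with a median of -1.55. Il6ra fell from 209 to 57.5 TPM, with -1.57 (-1.62 to -1.52), Lifr fell with -1.86, Il6st with -1.53, and Il11ra1 rose with 1.29 (1.02 to 1.55), a call lost when total reads replaced size factors. Of 9 active chains of the common gamma and TSLP group, 7 were called higher and 0 lower, but 4 of the 7 (Il2ra, Il2rb, Il7r and Il21r) passed the filter on TPM through the spinal cord library alone. Il2rg, the common gamma chain to which JAK3 binds, rose from 47.6 to 282 TPM, with 2.79 (2.69 to 2.89), and stood at 337 TPM in APCs. Il7r rose from 4 to 1508 reads, and Il2rb from 1 to 403 reads, or 8.39 (6.40 to 11.89) in log2 fold change, and T cells express both as well. Il7r and Il2ra were the chains called higher again in APCs, with 1.17 (1.07 to 1.28) and 1.74 (1.47 to 2.01), and Il7r lost its call with the correction for effective length, at 1.03.

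Of 5 active chains of the common beta and homodimer group, Csf2rb2 and Csf2rb were called higher in the first step, with log2 fold changes of 2.35 and 1.33, and 0 lower. Both serve JAK2, and as close paralogs they can share reads. Of 8 active interferon, IL-10 and IL-12 receptor chains, 3 were called higher and 1 lower. Il12rb1 (4.80) and Il12rb2 (2.76) rose and Il10ra rose with 1.15 (1.09 to 1.21), a call lost with total reads or the correction for effective length, while Ifngr1, the ligand-binding chain for interferon-gamma, fell from 363 to 130 TPM, with -1.20 (-1.26 to -1.15). None of the common beta, interferon, IL-10 or IL-12 receptor chains was called in the second step. Corrected for effective length, Csf2ra, a GM-CSF receptor chain, was called lower there, at -1.40 against -0.49 on reads. Il12rb1 and Il12rb2 passed the filter on TPM through the spinal cord library alone.

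Among 10 active genes for ligands of these receptors, of 24 listed, 8 were called higher and 0 lower in spinal cord monocytes. Of these 8, 6 (Il6, Lif, Il10, Ifng, Il12a and Il23a) passed the filter on TPM through that library alone, so they were counted only because they were over 3 TPM there. Osm, an IL-6 type cytokine, was the most abundant, at 14.8, 830 and 401 TPM. Il10 and Ifng had 0 reads in BM-Mono and 191 and 129 in SC-Mono, at least 88.9-fold and at least 60.1-fold higher against a floor of 3 reads per library. In APCs, 2 of 13 active ligand genes were called higher and 0 lower, Il12b with 3.69 (3.09 to 4.37) and Ifng with 1.62 (1.29 to 1.96). The median log2 fold change of the 13 was -0.48. Il27 (-1.11), Lif (-1.08), Osm (-1.01) and Csf2 (1.57) passed a 2-fold change but were not called. Il12b, at 0.952 TPM in SC-Mono and 12.8 TPM in SC-APC, passed the filter on TPM through SC-APC alone. The T cell markers were also higher in SC-APC than in SC-Mono, and the part of T cells in the Ifng value was not tested. Of 14 genes that STATs are known to switch on, 10 were called higher and 0 lower in the first step, 2 of them (Ccnd1 and Ccnd2) active through the spinal cord library alone, and 0 in the second, with a median of -0.26. Fos, the most abundant, was not called (0.72), while the cyclin genes Ccnd1 and Ccnd2 rose from 2 to 956 reads and from 17 to 1715 reads, with log2 fold changes of 8.96 (7.31 to 11.58) and 7.08 (6.35 to 7.96).

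**Figure D5:**
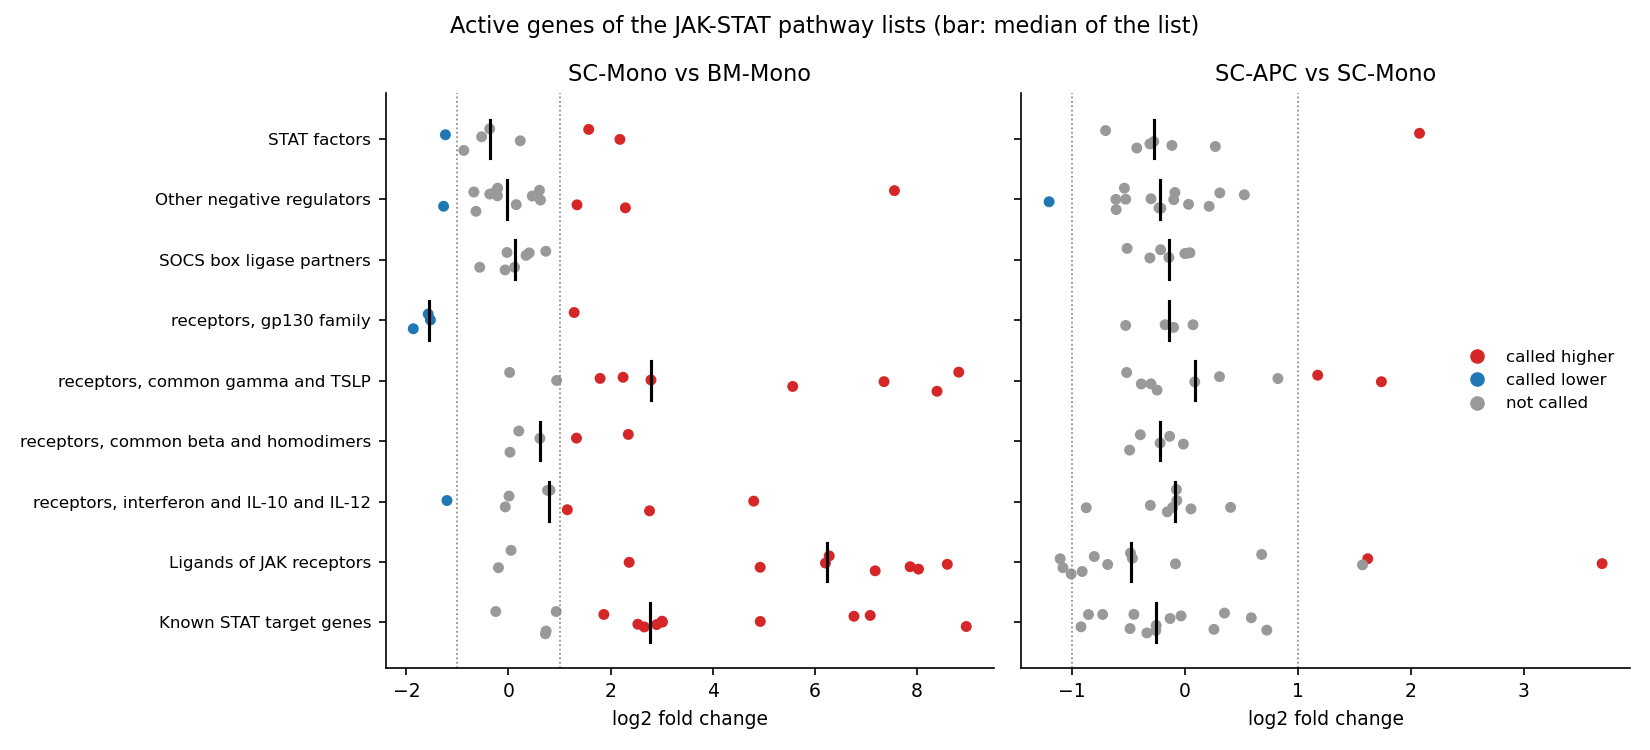
Log2 fold change of each active gene of the 9 pathway lists between the monocyte populations (left) and from spinal cord monocytes to APCs (right), with red for called higher, blue for called lower, grey for not called and a bar at the median of each list. Vertical jitter has no meaning and the panels have different axes. On the left the ligands, common gamma chains and STAT targets lie mostly above a 2-fold change and the gp130 chains mostly below it. On the right most genes lie inside the lines, but several ligand genes lie outside them in both directions.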

How the data were processed

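RNA-Seq was done on 3 libraries of cells pooled across mice. The authors estimated expression with Salmon 0.14.1 on GENCODE vM22 transcripts (mm10), pooling the transcripts of each gene. The authors deposited TPM, which Salmon corrects for effective length and scales per library. They also deposited estimated counts of reads without normalization, with fractions where a read matches several transcripts, and effective lengths. For the APC library the authors used a smaller transcript set that the sources do not explain, and a label of that library names the bone marrow while its title and tissue label name the spinal cord, which were followed.

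Estimated counts of the 22238 common genes were rounded and divided by size factors (median of ratios). The log2 ratio was given the posterior of a ratio of gamma variables of reads plus 1, after the definition of GFold that the study used, with its median and percentiles 1 and 99. The study's threshold of 2 on log2 TPM was taken as log2 of TPM plus 1, an assumption that gives TPM over 3; without the added 1 it is TPM over 4, run as an alternative. With 1 library each, populations could not be tested, and p-values are left out. Symbols (99.9% of the common genes matched) and positions are those of GENCODE M21 (GRCm38). The calculation was tested on simulated data. The members and the gene lists were chosen with earlier results of these data known, and the lists were written without reference to a database. Named genes were the members, the STAT genes, and of each other list the most abundant gene and up to 2 called genes in each direction with the largest change. An item that this rule names is not reported here. Others (Socs7, Il6st, Il10ra, Il21r, Csf2ra, Flt3, Clec9a, the ligand genes that passed the filter through a spinal cord library alone and the T cell genes at 0 reads) were chosen after their values were seen. So were the markers Ccr2, Csf1r, Fcgr1, Plac8, Itgam, Cd86, Mrc1, Cd163, Cbr2 and Lyve1.

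Alternatives were total reads or TMM factors, reads divided by effective length, a TPM threshold of 4 or none, an assumed CV between libraries of 0.2 or 0.4, percentiles 0.1 and 99.9, a plain 2-fold change, 0.5 reads added, deposited TPM with a pseudocount of 1 or 0.1, and all genes of the monocyte libraries. Protein sequences were not used here. Calculations used scipy 1.17.1, pandas 2.3.3 and numpy 2.4.6 in Python 3.11.15, figures matplotlib 3.10.9, and TMM factors edgeR 4.0.16 in R 4.3.3.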

Additional observations from a re-analysis of the deposited data

How the results depend on the processing

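Over 370 fold changes of members under the alternatives, 0 called values changed sign, 293 stayed within the 95% counting interval of the reported value and 77 moved outside it. The 293 include every value from settings that change only the filter or the interval. These are the TPM thresholds, the assumed CVs, the other percentiles and the plain 2-fold change, under which a fold change cannot move. The 293 are therefore no measure of stability. Between the monocyte populations 4 members were called higher in every setting except an assumed CV of 0.4, which lost Jak2 and left 3, and the plain 2-fold change, which added Jak3 for 5. Deposited TPM plus 1 called 2 members lower (Socs6 and Tyk2), TPM plus 0.1 called 3 (also Socs5), and all genes of the monocyte libraries called 2 (Socs6 and Tyk2), where the reported count is 0. From spinal cord monocytes to APCs, 0 members were called in all 12 settings. Between APCs and bone marrow monocytes an assumed CV of 0.2 or 0.4 left 3 called higher of 5 and 0 called lower of 2, and total reads gave 4 called higher (Jak3 lost) and 3 called lower (Socs4 added). The log2 fold change of Socs4 between the monocyte populations ran from -0.82 to 0.36, and that of Jak1 from SC-Mono to SC-APC from -0.11 to 0.09. Scaling by total reads moved every log2 ratio of the first step by -0.18.

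Over all genes of the first step, 1386 were called higher and 1073 lower. The counts were 630 and 225 with an assumed CV of 0.4, 2623 and 1178 without a threshold on TPM, 1395 and 2108 with deposited TPM plus 0.1, 1309 and 1838 with TPM plus 1, and 1371 and 1587 with all genes of the monocyte libraries. The cause of these differences was not tested. In the second step 188 were called higher and 165 lower, 43 and 14 with an assumed CV of 0.4, and 232 and 320 on reads divided by effective length. No paired analysis was possible because each population has 1 library, and no replicate could be left out for the same reason. At these depths 3 reads were the floor, and Cish and Socs1 in BM-Mono, at 15 and 28 reads, had the widest intervals among the members.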

Other observations

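Promoter windows of the pathway lists were searched for the same letters, which over 27025 genes were found in 9.55% for TTCNNNGAA and in 3.99% for the interferon response element core. TTCNNNGAA was present in 3 of 7 genes with a window among the interferon, IL-10 and IL-12 receptor chains (Ifnar1, Ifnar2 and Il12rb2), in 2 of 11 known STAT target genes (Bcl6 and Irf1), in 2 of 15 ligand genes (Ifng and Il4), in 1 of 9 common gamma and TSLP chains (Il7r), and in 2 of 8 common beta and homodimer chains (Csf2rb2 and Prlr). It was in 0 of 6 STAT genes, 0 of 8 other negative regulators, 0 of 5 SOCS box ligase partners and 0 of 6 gp130 family chains. The interferon response element core was in Stat2 and Stat4 of the 6 STAT genes, in Gbp2 of the STAT targets and in Il4 of the ligands, and in no gene of the other lists.

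Genes that overlap the members in the annotation held few reads. Insl3, which lies within Jak3 on the same strand over 1362 bases, had 0, 4.11 and 0 estimated reads in BM-Mono, SC-Mono and SC-APC, and 1700084C06Rik, antisense to Tyk2 over 24326 bases, had 2 in each monocyte library.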
